A study of Mus musculus with 72 samples.

Results

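The mouse mitochondrial chromosome carries 37 genes, and they were taken from the count table as every row placed on chromosome MT, 37 of 55573 genes. They are 13 protein-coding genes, 2 ribosomal RNA (rRNA) genes and 22 transfer RNA (tRNA) genes. The counts came from RNA-Seq of livers of male mice, labelled C57BL/6 and on a C57BL/6J background per the study's methods, from which messenger RNA libraries were made. Control mice (WT) carried Bmal1 fl/fl, a floxed form of the core clock gene Bmal1 (Arntl), and liver knockout mice (LKO) carried Bmal1 fl/fl with Alb-Cre, a recombinase driven by the albumin promoter and so active in hepatocytes. Both genotypes were either specific pathogen free (SPF), with gut microbes, or germ free (GF), without them. Livers were taken at zeitgeber time (ZT, hours after lights on) 2, 6, 10, 14, 18 and 22 from 3 mice per group, which gives 18 libraries in each of the 4 groups and 72 in all.

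The respiratory chain moves electrons from nutrients to oxygen and builds the proton gradient that ATP synthase uses, and the liver relies on it for gluconeogenesis and fatty acid oxidation. Most of its subunits are encoded in the nucleus, but a core set is made inside the mitochondrion from its own chromosome: subunits of complex I (Nd genes), cytochrome b of complex III (Cytb), subunits of complex IV (Co genes) and of ATP synthase (Atp genes). Both strands of the circle are read as long transcripts that are cut at the tRNAs lying between the other genes, so neighbouring genes start from a common precursor and the level of each mature RNA also depends on its processing and decay.

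Several of these genes had next to no counts. Reads were 50 bases long. By default the counting tool the authors used leaves out reads with more than 1 place in the genome or lying over more than 1 gene, and it does not use the strand. Whether these defaults were kept is not given in the sources used here. Pieces of mitochondrial DNA have been copied into nuclear chromosomes, and a read from a stretch that a copy also holds has more than 1 place. The first 60 bases of mt-Co2 (MT:7013-7072, + strand) and of its copy Gm28661 (chr1:24615506-24615565, - strand) are shown because they are the same at every base, and those of mt-Nd3 (MT:9459-9518, + strand) and Gm28438 (chr1:24613060-24613119, - strand) because they hold the 1 base, in capitals, at which that pair differed. All sequences here are from GENCODE vM21 transcripts, on build GRCm38 (mm10).
mt-Co2: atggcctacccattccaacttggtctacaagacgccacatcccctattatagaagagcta
Gm28661: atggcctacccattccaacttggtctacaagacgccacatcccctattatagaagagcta
mt-Nd3: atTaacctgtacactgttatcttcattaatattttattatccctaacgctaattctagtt
Gm28438: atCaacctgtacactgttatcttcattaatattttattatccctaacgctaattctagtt

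A second limit is the crowding of the genes. The mt-Atp8 and mt-Atp6 genes share 43 bases (MT:7927-7969) and mt-Nd5 and mt-Nd6, which lie on opposite strands, share 14 (MT:13552-13565). Under the default settings reads over such bases would go uncounted. The capitals below are the shared bases, with the bases on either side in lower case.
mt-Atp8 and mt-Atp6: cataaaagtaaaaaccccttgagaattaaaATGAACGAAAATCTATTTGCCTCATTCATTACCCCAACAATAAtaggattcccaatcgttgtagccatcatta
mt-Nd5 and mt-Nd6: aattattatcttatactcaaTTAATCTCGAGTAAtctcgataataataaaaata

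Every 50-base window of the chromosome that could be read from an annotated transcript, 14581 in all, was looked up in the other annotated transcripts, and 4364 were found in 1 or more of 16 nuclear genes. Of the 13 protein-coding genes, 7 kept many windows that lie in 1 gene and in no other transcript: mt-Nd5 had 1626, mt-Cytb 1095, mt-Nd1 and mt-Nd2 906 each, mt-Co1 731, mt-Nd4 502 and mt-Nd6 456. These 7 had counts in all 72 libraries. The other 6 were close to unread. Summed over the 72 libraries, mt-Co2 had 2 counts, mt-Atp6 2, mt-Co3 3 and mt-Nd3 2, and mt-Nd4l and mt-Atp8 had 0. The first 5 of these 6 had from 0 to 6 windows of their own, but mt-Atp8 had 112 and still no count. Only annotated transcripts were searched, not the genome, so copies outside transcripts were not seen. No statement on RNA of these 6 genes can be drawn from the table, and the subunits of ATP synthase encoded by the chromosome are therefore not represented below.

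**Figure D1:**
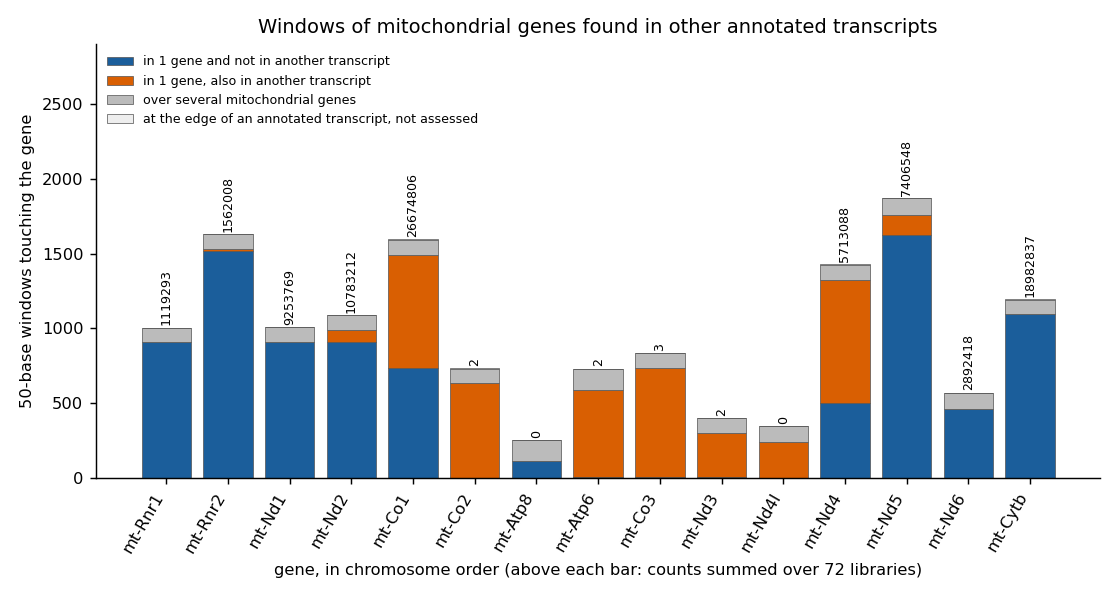
For each protein-coding and rRNA gene, in chromosome order on the x axis, the bar stacks the number of 50-base windows (y axis) by whether they lie in 1 gene and in no other annotated transcript (blue), also in another transcript (orange) or over several mitochondrial genes (grey). The number over each bar is the count summed over 72 libraries, and the 6 genes with sums of 0 to 3 have at most 112 blue windows.

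The copies of mt-Co2, mt-Atp6, mt-Co3 and mt-Nd4l on chromosome 1 had few counts, as had these genes. Gm28661 reached at most 3 counts in a library, Gm10925 (a copy of mt-Atp6) 7, Gm28437 (mt-Co3) 5 and Gm10222 (mt-Nd4l) 1, and each was identical to its gene over every base compared. Of the other copies on chromosome 1, Gm28438, the copy of mt-Nd3, had 128 to 521 counts (median 245) in all 72 libraries against 2 counts in all for mt-Nd3. On chromosome 2, Gm13340 (mt-Co1) had 27 to 99 counts and Gm13341 (mt-Co2) 16 to 53, again in all 72 libraries. Of the 296 windows of Gm28438, 293 were also found in mt-Nd3 and 3 were not. The 1 difference between Gm28438 and mt-Nd3 is T3C, counted from the first base of mt-Nd3, with the base of mt-Nd3 first. Which molecules gave these counts was not tested.

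The libraries held 17369927 to 22076113 counts (median 19106725.5). As a check of the labels, Arntl, the deleted gene, spanned 0.624 to 39.9 CPM (counts scaled to a common library size) in SPF WT and 0.331 to 40.6 in GF WT libraries over the day, against 8.52 to 29.2 in SPF LKO and 7.04 to 13.4 in GF LKO libraries. Counts are over the whole gene and do not single out the deleted part, so these levels do not by themselves check the deletion. Npas2, a paralogue of the partner of BMAL1, was at 0.219 CPM in the library labelled replicate 2 of SPF LKO at ZT14 and at 1.82 in the one labelled replicate 1 at ZT18, beside 24.0 to 36.7 in the other 4 SPF LKO libraries of those times. Arntl was at 2.12 CPM in the library labelled replicate 3 of SPF WT at ZT14, where its mates were at 15.8 and 19.5. It was at 8.21 CPM in the library labelled replicate 3 of GF WT at ZT6, where its mates were at 1.62 and 2.43. These 4 libraries were kept, and values without them are given where they bear on a result. Hepatocyte markers were abundant, with a median sum over 8 genes of 69951 to 150051 CPM by group, and markers of skeletal muscle were at 0.106 CPM or less.

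Mitochondrial genes took between 4.15% and 8.41% of all counts, with a median of 6.09% over the 72 libraries. Protein-coding genes made up 96.3% of these counts, rRNA genes 3.16% and tRNA genes 0.563%. The protein-coding genes that were close to unread, as described above, add next to nothing to these shares. Reads over a tRNA gene cannot be told apart from reads of longer, uncut transcripts. In SPF WT mice the share ran from 4.99% to 8.12% with a median of 6.68%. In SPF LKO mice it ran from 4.15% to 6.75% with a median of 5.56%. The 2 groups overlapped over much of their ranges. In GF WT mice it ran from 5.64% to 8.41% (median 7.02%), and in GF LKO mice from 4.37% to 6.10% (median 5.47%). The LKO medians lay below the WT medians in both microbial states, while the SPF and GF medians of a genotype lay close together. Leaving out the 4 libraries named above gave medians of 6.82% and 5.47% for SPF WT and SPF LKO and of 7.01% and 5.47% for GF WT and GF LKO. In bulk tissue, fewer cells of a type and less mitochondrial RNA per cell cannot be told apart.

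By time of day the lowest shares of SPF WT mice were at ZT6, from 4.99% to 5.98%, and the highest at ZT22, from 7.35% to 8.12%. SPF LKO mice at ZT22 had 5.21% to 5.59%, below every SPF WT library of that time. At ZT6 SPF LKO mice had 5.27% to 6.26% and the genotypes overlapped. GF LKO mice stayed between 4.37% and 6.10% at all times.

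**Figure D2:**
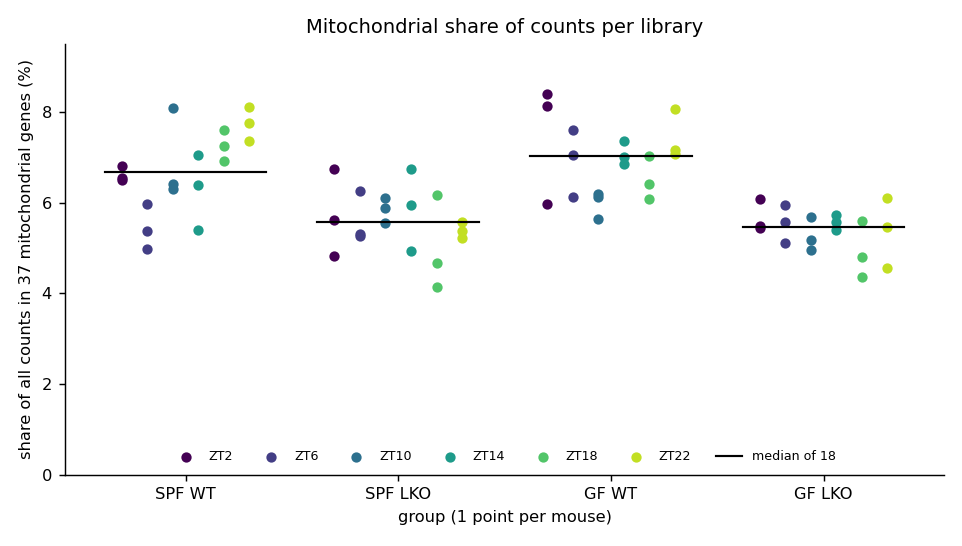
Each point is 1 library (1 mouse), placed by group on the x axis and coloured by ZT, and the y axis is the share of all counts in the 37 mitochondrial genes in percent. The black lines are medians of 18 libraries, at 6.68%, 5.56%, 7.02% and 5.47% from left to right.

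Among the genes that could be read, mt-Co1, the catalytic subunit of complex IV, and mt-Cytb had the highest levels per length. Levels here are CPM scaled by TMM factors, divided by the length of the gene in kb. The medians over 72 libraries were 12022 CPM per kb for mt-Co1, 11831 for mt-Cytb, 7462 for mt-Nd2, 6659 for mt-Nd1, 4100 for mt-Nd6, 2879 for mt-Nd5 and 2870 for mt-Nd4. The rRNA genes followed, with 815 for mt-Rnr1 and 705 for mt-Rnr2, in libraries made from messenger RNA. How far the counts of these genes, here and below, follow the amount of ribosomal RNA was not tested. Neighbours in this order were not always separated. The mt-Co1 level was above that of mt-Cytb in 43 of 72 libraries, mt-Nd2 above mt-Nd1 in 59, and mt-Nd5 above mt-Nd4 in 31, while the steps from mt-Cytb to mt-Nd2, from mt-Nd1 to mt-Nd6, from mt-Nd6 to mt-Nd5 and from mt-Nd4 to mt-Rnr1 held in all 72.

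The lengths overstate what was readable in genes with many shared windows. Divided by the windows lying in no other transcript, mt-Co1 (25.4 CPM per window) stood above mt-Cytb (12.4) in 72 of 72 libraries. The mt-Nd4 level moved from the seventh place to the fourth, at 7.88 CPM per window, behind mt-Nd2 at 8.55. The mt-Nd6 gene is the only protein-coding gene on the light strand, and it had 4.67 CPM per window, in the sixth place, above mt-Nd5 at 3.23 in 72 of 72 libraries. If the strand of reads was not used, its counts here and below may include RNA of the opposite strand.

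Of the 22 tRNA genes, 7 had no count in any library (mt-Tw, mt-Ty, mt-Ts1, mt-Td, mt-Tk, mt-Tg and mt-Th). A tRNA gene left room for 9 to 26 windows of its own, and those without a count had 16 to 21, as many as others that were counted. The highest was mt-Tp, the proline tRNA, with a median of 199 CPM, then mt-Ta with 46.6 and mt-Tl1 with 35.7. Their sequences are shown to set out how short these rows are, and the first 2 are read from the light strand.
mt-Tp: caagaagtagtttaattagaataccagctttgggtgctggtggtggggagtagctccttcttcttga
mt-Ta: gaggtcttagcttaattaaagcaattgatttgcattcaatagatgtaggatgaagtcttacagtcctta
mt-Tl1: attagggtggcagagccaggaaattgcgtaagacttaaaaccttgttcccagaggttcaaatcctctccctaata
The places are MT:15356-15422 (- strand), MT:5018-5086 (- strand) and MT:2676-2750 (+ strand). If the strand of reads was not used, as is the default, RNA of the opposite strand cannot be told apart.

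The first question of the design is what the loss of the liver clock does to these RNAs. All 7 protein-coding genes that could be read were lower in LKO than in WT mice, in both microbial states. The mt-Co1 level in SPF WT mice ran from 15022 to 29288 CPM (median 21613), and in SPF LKO mice from 11136 to 23427 (median 15717). In GF WT mice it ran from 18239 to 33239 (median 24094) and in GF LKO mice from 11456 to 18833 (median 15882). In SPF mice 6 of 18 LKO libraries lay below the lowest WT library, and in GF mice 16 of 18 did. Across all times the mt-Co1 log2 fold change was -0.43 (SE 0.09, edgeR quasi-likelihood test, adjusted p = 0.000319) in SPF and -0.63 (SE 0.07, adjusted p = 4.77e-09) in GF mice, that is 25.8% and 35.5% lower.

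Counted over all members, 21 of the 37 genes passed the filter on low counts, namely 7 protein-coding, 2 rRNA and 12 tRNA genes. Of these 21, 14 were lower in SPF LKO mice and 0 higher at an adjusted p under 0.05, where 23.1% of all genes tested were called and 11.5% were called lower. In GF LKO mice 13 were lower and 0 higher, where 30.8% of all genes were called and 15.2% called lower. The median log2 fold change of the 21 was -0.30 in SPF and -0.40 in GF mice, beside -0.01 and 0.01 over all genes tested. The SPF and GF comparisons have no library in common, and 12 genes were called lower in both, 85.7% of the 14 and 92.3% of the 13. The same share over all genes is not given here, so whether it is particular to these genes was not tested.

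The complex I subunits and cytochrome b fell in both states. The mt-Nd1 mean went from 7321 to 5628 CPM in SPF (log2 fold change -0.38, SE 0.09) and from 8494 to 5693 CPM in GF mice (-0.58, SE 0.06), where all 18 LKO libraries lay below all 18 WT libraries. For mt-Nd4 the changes were -0.31 and -0.49, for mt-Nd2 -0.30 and -0.41, for mt-Nd5 -0.27 and -0.45 and for mt-Nd6 -0.27 and -0.40. The mt-Cytb mean of complex III went from 14464 to 11033 CPM in SPF (-0.39) and from 18070 to 12306 CPM in GF mice (-0.55). The estimates of all 7 protein-coding genes were more negative in GF mice, but the difference between the microbial states was not called for any of them. The edgeR interaction test over all 72 libraries called 0 of 21 genes, 1 had an unadjusted p under 0.05, DESeq2 called 0, and 0.438% of all genes were called.

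Of the 12 tRNA rows tested, 5 were lower in each state. The isoleucine tRNA mt-Ti, next to mt-Nd1, ran from 1.35 to 3.89 CPM (median 2.19) in SPF WT and from 0.718 to 2.14 (median 1.16) in SPF LKO mice. Of the 18 SPF LKO libraries 15 lay below the lowest SPF WT library. Its log2 fold changes were -0.95 (SE 0.14, edgeR adjusted p = 3.32e-06) in SPF and -0.88 (SE 0.16, adjusted p = 5.09e-05) in GF mice. The glutamine tRNA mt-Tq, which follows it on the other strand, changed by -0.62 and -0.87, and in GF mice its 18 WT libraries (11.3 to 27.6 CPM) and 18 LKO libraries (5.52 to 11.1 CPM) did not overlap. The changes were -0.40 and -0.53 for mt-Tp and -0.23 and -0.31 for the methionine tRNA mt-Tm. The leucine tRNA mt-Tl2 was called in SPF mice only (-0.67, adjusted p = 0.00912, and -0.14, adjusted p = 0.577, in GF) and mt-Tl1 in GF mice only (-0.33, adjusted p = 0.0087, and -0.23, adjusted p = 0.0673, in SPF), with no call for the difference in either case. The cysteine tRNA mt-Tc was not called in either state (0.02 and 0.19).

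Both rRNA genes were called lower in SPF mice and 1 of them in GF mice, with no call for the difference. These are counts in libraries made from messenger RNA. The mt-Rnr2 mean, the large ribosomal subunit RNA, went from 1260 to 830 CPM in SPF (log2 fold change -0.60, SE 0.15, edgeR adjusted p = 0.00241) and from 1426 to 1097 in GF mice (-0.38, SE 0.11, adjusted p = 0.00964). Its call was lost without replicate number 1 in both states, and in GF mice also with library totals (edgeR adjusted p = 0.124). The small subunit RNA mt-Rnr1 went from 856 to 677 CPM in SPF (-0.34, SE 0.12, adjusted p = 0.0404, but 0.0634 to 0.437 without 1 replicate number), and in GF mice its means were 906 and 835 CPM (-0.12, SE 0.11, adjusted p = 0.459).

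**Figure D3:**
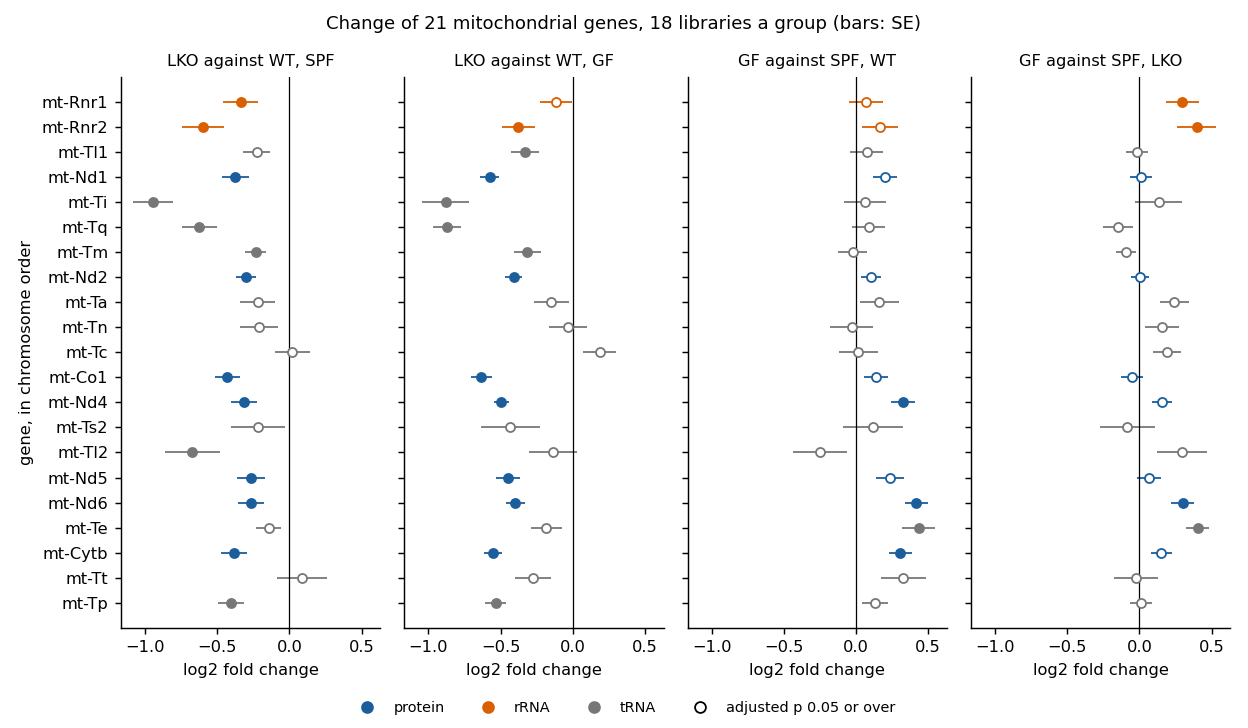
Log2 fold changes (x axis) of the 21 mitochondrial genes that passed the filter, in chromosome order on the y axis, in the 4 pooled comparisons of 18 against 18 libraries, with bars of 1 SE and filled points for an adjusted p under 0.05. In the 2 panels on the left every blue point (protein-coding genes) lies between -0.27 and -0.63 and is filled, and in the 2 on the right filled points lie between 0.30 and 0.43.

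Of the libraries that went against their labels, both in SPF LKO had high mt-Co1 levels. At ZT14 the library labelled replicate 2 of SPF LKO had 23427 CPM of mt-Co1, beside 18048 and 13943 in the other 2. At ZT18 the library labelled replicate 1 of SPF LKO had 20754 CPM, beside 11136 and 13203. Both were the highest of their group and time. Without the 4 libraries 15 genes were called in SPF and 13 in GF mice, and the change of mt-Co1 in SPF mice was -0.52.

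The size of these falls depends on the scaling. With library totals in place of TMM factors, the median of all genes moved to 0.10 in the SPF and 0.18 in the GF genotype comparison, and 80.4% and 87.4% of the genes called were then higher in LKO mice, against 50.2% and 50.5% with TMM. Under library totals 10 mitochondrial genes were called in SPF mice, all lower, and 11 in GF mice, 10 of them lower and mt-Tc higher (0.36, or 0.18 above the median of all genes). Of the 13159 genes tested in SPF mice 3502 were then called higher and 856 lower. Of the 12662 tested in GF mice 6050 were called higher and 870 lower. The mt-Co1 change was then -0.46 in GF mice, or -0.64 relative to the median of all genes. The 7 protein-coding genes kept their direction in both genotype comparisons under each alternative run, but in SPF mice mt-Nd5 and mt-Nd6 were called neither with library totals (-0.16 each) nor with no filter on low counts. Leaving out 1 replicate number also ended calls in SPF mice, those of mt-Nd4 and mt-Nd5 without number 1, of mt-Nd5 and mt-Nd6 without number 2, and of these 3 genes without number 3.

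Hepatocyte markers moved with genotype too. Their summed level had a median of 117447 CPM in SPF WT (range 94031 to 142564) and 69951 in SPF LKO libraries (53174 to 136775), and of 150051 in GF WT (125224 to 183751) and 73490 in GF LKO libraries (65005 to 91184). Nearly all of this was Alb, with medians of 83712 and 36414 CPM in SPF and 104308 and 32080 in GF mice. The other 7 markers summed to medians of 33108 and 32542 CPM in SPF and 43629 and 40974 in GF mice, with overlapping ranges. Without the libraries that went against their labels, the sum of all 8 markers ran from 53174 to 87968 CPM (median 67516) in SPF LKO mice. In SPF WT mice it then ran from 94031 to 142564 CPM (median 117917), with no overlap. The part of cell makeup in these results was not tested. With the 10 most abundant nuclear genes left out of the total, the mitochondrial share had medians of 7.96% in SPF WT, 6.30% in SPF LKO, 8.52% in GF WT and 6.30% in GF LKO mice, again lower in LKO mice.

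The second question is what the absence of gut microbes does. Germ-free status raised few of these genes. In WT mice 4 of 21 were higher in GF than in SPF livers and 0 lower, where 31.8% of all genes were called and 14.2% called higher, so 4 of 21 is near the background. They were mt-Nd6 (log2 fold change 0.42, SE 0.08, edgeR adjusted p = 0.000134), the glutamate tRNA mt-Te (0.43, SE 0.12, adjusted p = 0.00423), mt-Nd4 (0.33, adjusted p = 0.00254) and mt-Cytb (0.31, adjusted p = 0.00378). The calls of mt-Cytb and mt-Te were lost with library totals and without replicate number 2. Those of mt-Nd4 and mt-Cytb were lost without number 3. In LKO mice 4 of 21 were higher and 0 lower, where 36.4% of all genes were called and 18.1% called higher, which is near the background as well. These were mt-Te (0.41, adjusted p = 0.000148), mt-Nd6 (0.30, adjusted p = 0.00385), mt-Rnr2 (0.40, adjusted p = 0.0196) and mt-Rnr1 (0.30, adjusted p = 0.035). The call of mt-Rnr1 was lost with the replicate block (edgeR adjusted p = 0.0562), with no filter, with library totals and without replicate number 2 or 3, and that of mt-Rnr2 without number 3 (adjusted p = 0.218).

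The 2 genes called in both genotypes, mt-Nd6 and mt-Te, are neighbours on the light strand. If the strand of reads was not used, RNA of the opposite strand cannot be told apart in their counts. The 2 genes are 50% of the calls of each comparison, which have no library in common. The same share over all genes is not given here. In WT mice mt-Nd6 ran from 1414 to 2627 CPM (median 2057) in SPF and from 2176 to 3595 (median 2638) in GF livers. In LKO mice it ran from 1066 to 2271 CPM (median 1589) in SPF and from 1319 to 2398 (median 2086) in GF livers. The ranges overlapped in both genotypes, more so in LKO mice. The mt-Te row was low, with medians of 2.497 and 3.501 CPM in SPF and GF WT and 2.394 and 3.002 in SPF and GF LKO mice. The mt-Co1 changes with germ-free status, 0.14 (SE 0.09, adjusted p = 0.211) in WT and -0.05 (SE 0.08, adjusted p = 0.61) in LKO mice, were not called. The direction of the WT value depends on the scaling, since it was -0.03 with library totals. These comparisons share their libraries with the genotype comparisons.

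Scaling mattered here as well. With library totals the median of all genes was -0.19 in the WT and -0.13 in the LKO comparison, and 7.09% and 17.9% of the genes called were higher in GF mice, against 44.5% and 49.5% with TMM. Of the 12776 genes tested in WT mice 449 were then called higher and 5887 lower. Of the 13010 tested in LKO mice 993 were called higher and 4564 lower. Among the mitochondrial genes 2 were called in WT mice with library totals, mt-Nd4 (0.16) and mt-Nd6 (0.25), both higher. In LKO mice 6 were called, with mt-Rnr2 (0.30), mt-Nd6 (0.19) and mt-Te (0.29) higher and mt-Co1 (-0.16), mt-Tq (-0.25) and mt-Tm (-0.21) lower. Set against the median of all genes these last 3 were at -0.03, -0.12 and -0.08.

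Within single times (3 libraries a group, 12 in a fit), the genotype difference was called most often at ZT22 with all libraries kept. Without the library labelled replicate 1 of SPF LKO at ZT18, however, 11 genes were called at ZT18 in SPF mice. The share of all genes called in that run is not given here. At ZT22 8 of 21 genes were lower in SPF LKO mice, among them 6 protein-coding genes, and 6 in GF LKO mice, among them 5 protein-coding genes. The protein-coding log2 fold changes at ZT22 ran from -0.81 to -0.52 in SPF and from -0.83 to -0.49 in GF mice. At that time mt-Co1 was at 24826, 24875 and 25588 CPM in SPF WT and at 13153, 15617 and 15816 in SPF LKO mice, and at 25017, 26421 and 30779 in GF WT and 12405, 16144 and 17779 in GF LKO mice. No LKO library reached a WT library in either state. The edgeR adjusted p was 0.0135 in SPF and 0.00538 in GF mice.

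**Figure D4:**
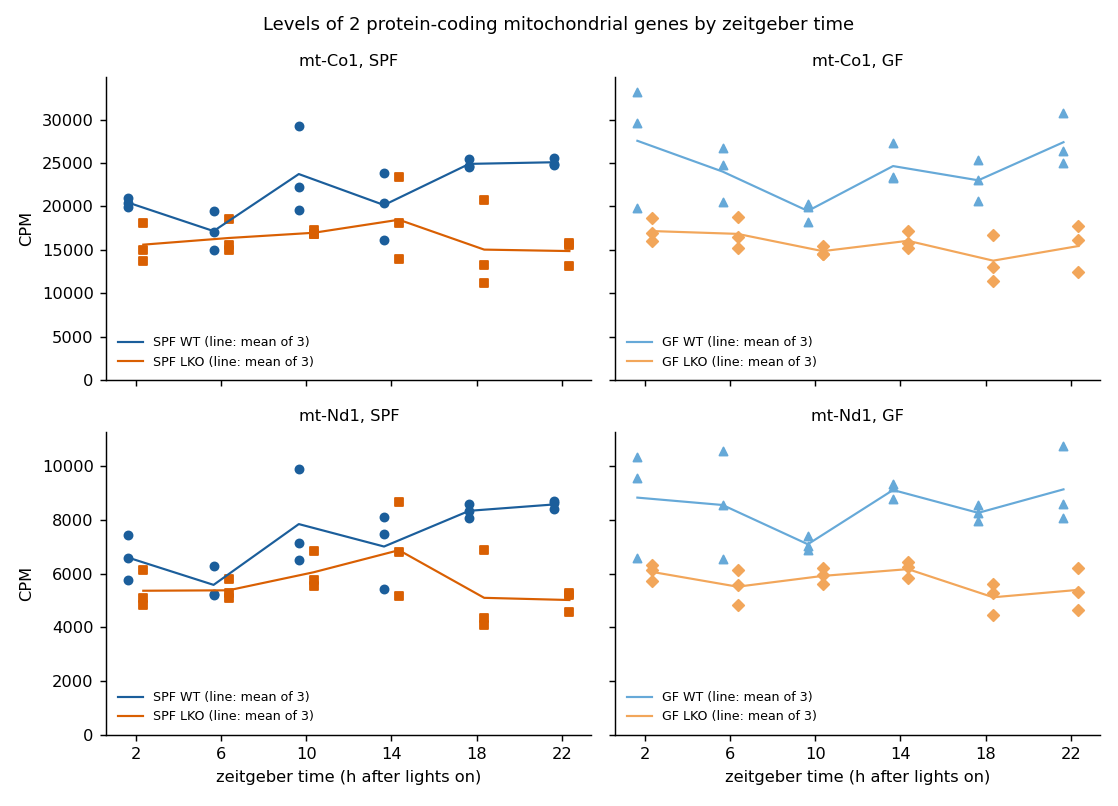
Levels in CPM (y axis, from 0) of mt-Co1 (top) and mt-Nd1 (bottom) against ZT in hours (x axis), with SPF mice on the left and GF mice on the right, 1 point per mouse and lines through the means of 3. In GF mice the LKO points of mt-Co1 lie below all WT points at each ZT, and in SPF mice the genotypes overlap at ZT6 and ZT14.

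At the other times fewer genes were called, and all called genes were lower in LKO mice. In SPF mice 2, 1, 3, 0 and 0 genes were called at ZT2, ZT6, ZT10, ZT14 and ZT18, and in GF mice 4, 4, 0, 0 and 3. Of all genes, 6.89%, 7.26%, 11.9%, 0% and 0.015% were called at these times in SPF mice and 4.21%, 11.7%, 13.1%, 6.1% and 8.43% in GF mice. At ZT22 3.31% and 4.44% were called. Where edgeR called 0 members, the number with an unadjusted p under 0.05 was 0 at ZT14 and 15 at ZT18 in SPF mice, where DESeq2 called 0 and 7, and 7 at ZT10 and 9 at ZT14 in GF mice, where DESeq2 called 1 and 5. The calls in SPF mice were mt-Rnr1 (-0.79) and mt-Rnr2 (-1.15) at ZT2, mt-Ti at ZT6, and mt-Co1 (-0.48), mt-Tp (-0.49) and mt-Tq at ZT10. At ZT6 the protein-coding genes of SPF mice lay between -0.09 and 0.10, with 4 of 7 estimates below 0. At ZT18 they lay between -0.77 and -0.53 with 0 calls, and 1 library decided this count, the one labelled replicate 1 of SPF LKO at ZT18. When it was left out 11 genes were called. The 0.015% above was with this library kept, and no share of all genes is given for the run without it. In GF mice all 7 protein-coding estimates were negative at each of the 6 times.

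Germ-free status was called at ZT2 and ZT6 in WT mice, where 3 and 5 genes were higher. At ZT2 these were mt-Nd6 (0.69), mt-Cytb (0.57) and mt-Nd4 (0.56), and at ZT6 the same genes (0.74, 0.63 and 0.71) with mt-Te and mt-Tl2. Of all genes 10.1% were called at ZT2 and 2.62% at ZT6. Single mice decided these counts: 7 genes were called at ZT2 without GF WT replicate 2 and 0 without any other of the 6 libraries, and at ZT6 11 were called without SPF WT replicate 1, 2 without GF WT replicate 3 and 0 without any of the other 4. In LKO mice mt-Rnr1 (0.73) and mt-Rnr2 (0.93) were higher at ZT2 and mt-Rnr2 (1.09) and mt-Te at ZT22, with 8.92% and 2.25% of all genes called at these times. At the other times edgeR called 0 members. In WT mice 2.89%, 0.0751%, 0.983% and 0.516% of all genes were called at ZT10, ZT14, ZT18 and ZT22, and 4, 8, 4 and 4 members had an unadjusted p under 0.05, where DESeq2 called 0, 2, 1 and 0. In LKO mice 0.309%, 0.982%, 0.0601% and 3.71% of all genes were called at ZT6, ZT10, ZT14 and ZT18, and 4, 0, 3 and 1 members had an unadjusted p under 0.05, where DESeq2 called 0, 0, 1 and 0.

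Daily rhythms were tested by a fit of a 24 h cosine within each group. In SPF WT mice 0 of 21 genes were called by edgeR, with a lowest adjusted p of 0.0508 and 6 genes at an unadjusted p under 0.05, where 16.9% of all genes were called. DESeq2 called 5, and edgeR called 5 without the libraries that went against their labels. In SPF LKO mice 3 were called (24.5% of all genes), in GF WT mice 2 (29.4%) and in GF LKO mice 4 of 20 (38.6%). By edgeR with all libraries these shares were below the background, and no protein-coding gene was called in any group. In SPF WT mice the calls by DESeq2 and those of edgeR without the libraries against their labels each included mt-Nd2, mt-Nd5 and mt-Cytb. The calls outside the rRNA genes were mt-Tc in SPF LKO (peak at ZT6.8, adjusted p = 0.0334, and 0.0832 without those libraries), mt-Ti in GF WT (amplitude 0.50, peak at ZT2.4, adjusted p = 0.00726) and 4 in GF LKO mice. The 4 in GF LKO mice were tRNA rows: mt-Tq with an amplitude of 0.27 on the log2 scale and a peak at ZT8.0, mt-Tm (0.22, ZT2.6), mt-Ta (0.30, ZT4.0) and mt-Tt (0.36, ZT1.2). With ZT as a factor, and without each replicate number in turn, 3 of these 4 calls were lost each time, and mt-Tc was not called. The call of mt-Ti was lost with ZT as a factor and without number 1.

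Both rRNA genes, whose RNAs are part of the mitochondrial ribosome, were called rhythmic in SPF LKO mice. As the libraries were made from messenger RNA, whether these counts follow the amount of ribosomal RNA was not tested. In SPF LKO mice mt-Rnr1 had an amplitude of 0.36 with a peak at ZT11.5 (edgeR adjusted p = 0.0084) and mt-Rnr2 of 0.45 with a peak at ZT12.1 (adjusted p = 0.0162). The mt-Rnr2 level was 556, 579 and 750 CPM at ZT2 and 927, 1106 and 1119 at ZT10. At ZT22 it was 486, 615 and 642 CPM. The ZT10 libraries lay above all those of ZT2 and ZT22. At ZT14 the library labelled replicate 2 was at 1709 CPM, beside 688 and 732. Without the libraries that went against their labels the edgeR adjusted p were 0.0131 for mt-Rnr1 and 0.0242 for mt-Rnr2. Neither was called with ZT as a factor or without replicate number 1 or 2. In GF WT mice mt-Rnr1 had an amplitude of 0.30 with a peak at ZT5.8 (adjusted p = 0.0237, and 0.0647 without those libraries), and mt-Rnr2 0.27 with a peak at ZT5.6 (adjusted p = 0.0667). In GF LKO mice the fitted peaks were at ZT0.2 and ZT0.4, with adjusted p of 0.068 and 0.115.

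Whether rhythms differ between groups was tested directly. The difference between SPF LKO and GF LKO mice was called for mt-Rnr1 (edgeR adjusted p = 0.0139) and mt-Rnr2 (adjusted p = 0.0189), 2 of 21 genes, where 5.34% of all genes were called. At ZT2 mt-Rnr2 was at 946, 1065 and 1593 CPM in GF LKO mice, above the 3 SPF LKO libraries. At ZT10 it was at 670, 938 and 1016 CPM, overlapping those of SPF LKO mice. At ZT22 the GF LKO libraries, at 870, 1312 and 1520 CPM, again lay above those of SPF LKO mice. The other 3 comparisons of rhythms called 0 of 21 genes each, with 1.12% of all genes called for genotype in SPF, 6.38% for genotype in GF and 0.047% for germ-free status in WT mice. By edgeR 6, 1 and 2 members had an unadjusted p under 0.05 in these, and DESeq2 called 0 in each.

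**Figure D5:**
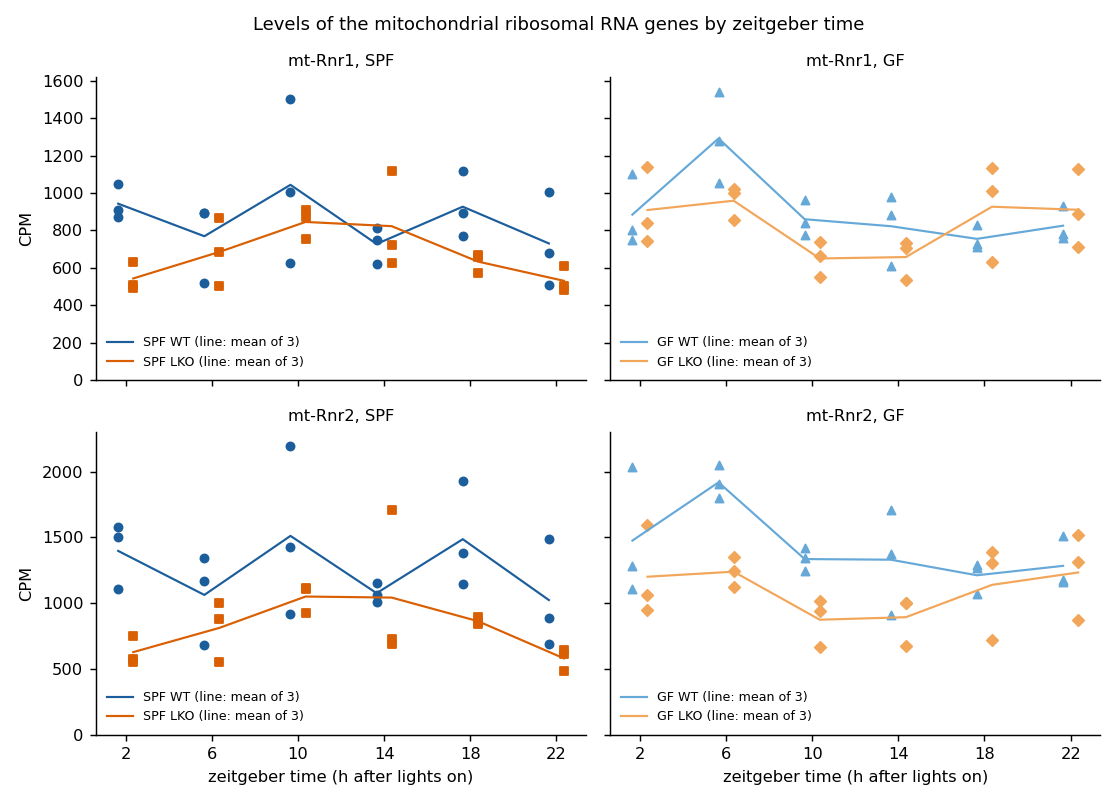
Levels in CPM (y axis, from 0) of mt-Rnr1 (top) and mt-Rnr2 (bottom) against ZT in hours (x axis), SPF on the left and GF on the right, with 1 point per mouse and lines through the means of 3. In SPF LKO mice the means are highest around ZT10 and ZT14, while in GF LKO mice they are lowest there. The SPF LKO means at ZT14 include the library labelled replicate 2, which went against its label. It had 1119 CPM of mt-Rnr1, beside 722 and 627, and 1709 CPM of mt-Rnr2, beside 732 and 688.

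The members' levels moved together to different degrees across the 72 libraries, which share their scaling, depth and groups. Over the 21 pairs of protein-coding genes Pearson's r of log2 CPM ran from 0.71 to 0.96 with a median of 0.84. With the mean of each group and ZT taken out it still ran from 0.44 to 0.93. The 2 rRNA genes had an r of 0.93 with each other, and 0.16 to 0.66 with the protein-coding genes. Of the tRNA rows mt-Tp was most like mt-Co1 (r = 0.91), although it lies on the opposite strand.

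Of the nuclear copies, 3 passed the filter. Gm28438, the copy of mt-Nd3 described above, ran from 8.09 to 27.9 CPM (median 13.7) in SPF WT and from 5.92 to 21.6 (median 9.10) in SPF LKO mice, and had medians of 17.7 and 11.9 CPM in GF WT and GF LKO mice. Its log2 fold changes with genotype were -0.61 (SE 0.18, edgeR adjusted p = 0.0112) in SPF and -0.53 (SE 0.12, adjusted p = 0.000752) in GF mice. With germ-free status it changed by 0.36 (adjusted p = 0.0337) in LKO mice. Gm13340, a copy of mt-Co1 on chromosome 2, was lower in LKO mice in both states (-0.40 and -0.62). Gm13341, a copy of mt-Co2, was called in GF mice (-0.36, adjusted p = 0.0497) and not in SPF mice (-0.28, adjusted p = 0.142).

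Genes of the nucleus that read and process the mitochondrial chromosome were taken as a list of 70, of which 67 passed the filter. In LKO mice 5 were higher and 10 lower in the SPF comparison and 6 higher and 10 lower in the GF comparison, 15 and 16 of 67 where 23.1% and 30.8% of all genes were called, which is near or below the background, with a median log2 fold change of 0.03 and 0.00 beside -0.01 and 0.01 over all genes. Polrmt, the mitochondrial RNA polymerase, was not called in either (0.18, SE 0.07, edgeR adjusted p = 0.0505 in SPF, and -0.02 in GF). Tfam, which packs the chromosome and starts its transcription, changed by -0.10 (adjusted p = 0.0602) in SPF and -0.13 (SE 0.04, adjusted p = 0.00445) in GF mice. Lrpprc, which stabilises mitochondrial messenger RNA, and Mtpap, its poly(A) polymerase, were not called with genotype.

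The largest rises in LKO mice were of Top1mt, the mitochondrial topoisomerase, whose mean went from 16.003 to 23.6 CPM in SPF (0.57, SE 0.07) and from 15.2 to 23.9 in GF mice (0.66, SE 0.05), and of the DNA primase Primpol (0.31 and 0.44). The largest falls were of Nr1d1, the clock repressor REV-ERB alpha and a direct target of BMAL1, with means of 28.1 and 3.67 CPM in SPF mice, and of Mterf2, a mitochondrial transcription termination factor family member, with means of 2.08 and 0.951 CPM in SPF (-1.13, SE 0.16) and 2.25 and 0.916 in GF mice (-1.29, SE 0.16). Ppargc1b, a nuclear activator of mitochondrial genes, fell by 0.68 on the log2 scale in SPF mice. Hsd17b10, a subunit of the enzyme that cuts the 5′ ends of mitochondrial tRNAs, had means of 221 and 146 CPM in GF mice (-0.60, SE 0.07). The nuclear activators as a group had 0 of 11 tested members higher and 5 lower in SPF, and 0 higher and 4 lower in GF mice, against the backgrounds given above. As listed, this group includes the repressor Nr1d1, which is among the genes called lower in both states.

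With germ-free status 9 of the 67 were higher and 1 lower in WT, and 11 higher and 2 lower in LKO mice, 10 and 13 of 67 where 31.8% and 36.4% of all genes were called, which is below the background. Tfb1m, the methyltransferase of the small ribosomal RNA mt-Rnr1, rose in both (0.37, SE 0.07, edgeR adjusted p = 5.26e-05, and 0.30, SE 0.06, adjusted p = 0.000123). Mtpap rose in both as well (0.24 and 0.13). Gabpa, a nuclear activator, was lower in both (-0.18 and -0.21), and Polrmt in LKO mice alone was called lower (-0.21, adjusted p = 0.0163), with no call for the difference (interaction adjusted p = 0.789).

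The nuclear-encoded partners of these proteins in the respiratory chain were taken as a second list. Of 74 nuclear subunits of complexes I, III, IV and V, 73 passed the filter. With genotype 1 was higher and 0 lower in SPF mice (median -0.08), where all 7 mitochondrial messenger RNAs were lower (median -0.31), and in GF mice 2 were higher and 29 lower (median -0.12, beside -0.49 for the mitochondrial 7). Of all genes 11.5% and 15.2% were called lower. With germ-free status 65 of 73 were higher and 1 lower in WT mice (median 0.29, beside 0.24 for the mitochondrial 7, of which 3 were called) and 62 higher and 1 lower in LKO mice (median 0.25, beside 0.06 for the mitochondrial 7, of which 1 was called). Over all genes the medians were -0.02 in both, and 14.2% and 18.1% were called higher. In the rhythm difference between SPF LKO and GF LKO mice, in which the 2 rRNA genes were called and no mitochondrial messenger RNA, 37 of the 73 nuclear subunits were called, beside 5.34% of all genes. Whether the lists differ was not tested.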

How the data were processed

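Liver RNA from 72 mice was sequenced as stranded messenger RNA libraries with single-end 50-base reads. The authors aligned reads to mm10 with STAR 2.6.1b and deposited raw counts per gene (Ensembl release 97) made with featureCounts 2.0.0. Groups came from the sample labels, and 0 columns were left unused. Library totals were 17369927 to 22076113 counts. Nothing states that numbered replicates share a litter or day.

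Counts were tested with the quasi-likelihood test of edgeR 4.0.16 (R 4.3.3) after filterByExpr and TMM scaling, on all genes, with Benjamini-Hochberg adjustment and a threshold of 0.05. Pooled comparisons used 18 against 18 libraries, the interaction 72, single times 12, and rhythms a cosine and sine of 24 h. Reference groups were WT or SPF. Alternatives were DESeq2 1.42.0, other scalings, no filter, ZT as a factor, a replicate block, libraries left out, and another denominator. The fits were tested on simulated data. Windows of 50 bases were compared with GENCODE vM21 transcripts, not with a genome. The protein-coding and rRNA genes were all named, and of the tRNA genes the 5 with the highest mean and those called in a pooled comparison or rhythm. Of the list of nuclear genes for mitochondrial gene expression, up to 3 called genes per direction and Polrmt, Tfam, Lrpprc and Mtpap were named. The members, gene lists and tests were chosen with earlier results of these data known.

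Marker lists of 10 cell types (47 genes) were summed per library. Median sums (SPF WT and LKO first, then GF WT and LKO) were 284, 244, 254 and 213 CPM for Kupffer cells, 162, 156, 155 and 158 for endothelium, 280, 298, 266 and 306 for stellate cells, 8.02, 13.5, 6.56 and 9.67 for cholangiocytes, 13.5, 10.4, 8.63 and 7.70 for lymphocytes, 276, 214, 286 and 222 for erythroid cells, 0.795, 0.0865, 0.489 and 0.0516 for adipose and 28.5, 77.8, 45.2 and 106 for pancreas, with Amy2a5 at 0 in all libraries.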

Additional observations from a re-analysis of the deposited data

Results flagged for a closer look

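The daily pattern of counts of 2 ribosomal RNA genes, in libraries made from messenger RNA, differed between SPF LKO and GF LKO mice. This was by a direct test of the difference between the fitted curves. The edgeR quasi-likelihood adjusted p was 0.0139 for mt-Rnr1 and 0.0189 for mt-Rnr2, which are neighbours read from 1 precursor and varied together (r = 0.93 over 72 libraries). With DESeq2 the adjusted p were 0.000926 and 0.00219, and without the libraries that went against their labels they were 0.0235 and 0.0394. Neither gene was called when 1 replicate number was left out at every time, with adjusted p from 0.0847 to 0.165 for mt-Rnr1 and from 0.0874 to 0.232 for mt-Rnr2.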

How the results depend on the processing

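Of the alternatives for single named genes, 397 kept their direction and their side of the threshold, 79 lost the call and 0 changed direction. The count in the WT microbial comparison was 2 with library totals, where 449 of 12776 genes were called higher and 5887 lower. Rhythm counts with ZT as a factor were 3 in SPF WT, 0 in SPF LKO, 1 in GF WT and 1 in GF LKO, with DESeq2 5 in SPF WT and 4 in GF WT, and with no filter on low counts 4 in SPF WT, 7 in GF WT and 7 in GF LKO. Without the libraries that went against their labels 5 rhythms were called in SPF WT and 1 rhythm difference for genotype in SPF mice, and with no filter 1 for genotype in GF mice. With DESeq2 the counts at single times for genotype were 7 in SPF at ZT18, and in GF 7 at ZT6, 1 at ZT10, 5 at ZT14 and 7 at ZT18, and for microbial status 14, 2 and 1 in WT at ZT6, ZT14 and ZT18 and 1 and 5 in LKO at ZT14 and ZT22. Deviations of same-numbered replicates had correlations from -0.20 to 0.31, with medians by comparison from -0.020 to 0.023. Of the 18 pairs in a comparison, 2 to 5 were above 0.1. With 3 mice a group these values cannot decide whether the numbers share a litter or day. With the replicate block mt-Rnr1 was not called for microbial status in LKO mice (adjusted p = 0.0562), 4 rhythms were called in GF WT, and at single times 1 gene for genotype in GF at ZT2, ZT6 and ZT14 each, 0 for WT microbial status at ZT6 and 0 for LKO at ZT22. With the 10 most abundant nuclear genes out of the total, the shares were 7.96%, 6.30%, 8.52% and 6.30%. Per window, mt-Nd4 ranked 4, mt-Nd1 5, mt-Nd6 6 and mt-Nd5 7.

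Leaving out 1 replicate number gave 7 to 10 calls for genotype in SPF (7, 10 and 9 without numbers 1, 2 and 3) and 10 to 13 in GF mice, 2 to 4 for microbial status in WT and 2 to 6 in LKO mice, and 0 for the interaction. Rhythm counts ran from 0 to 2 in SPF WT, 0 to 2 in SPF LKO, 0 to 7 in GF WT and 1 to 2 in GF LKO mice, and all rhythm differences gave 0. Leaving out 1 library at a time, the single-time counts for genotype ran in SPF mice from 0 to 2 (ZT2), 0 to 1 (ZT6), 1 to 6 (ZT10), 0 to 11 (ZT18) and 3 to 9 (ZT22), and in GF mice from 0 to 10 (ZT2), 0 to 4 (ZT6), 0 to 2 (ZT18) and 4 to 7 (ZT22). For microbial status they ran in WT mice from 0 to 7 (ZT2) and 0 to 11 (ZT6), and in LKO mice from 0 to 2 at ZT2 and ZT22. All other single-time counts stayed at 0. For the single-time counts with 1 library left out, shares of all genes are not given here. The cause of these changes was not tested.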
